A study of Mus musculus with 14 samples.

Results

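The genes of this account encode the machinery that assembles and tests antigen receptors: Rag1 and Rag2, Dntt, and the surrogate light chain group Igll1, Vpreb1 and Vpreb3. The open chromatin around them was taken from a merged list of ATAC-seq peaks, regions where the Tn5 transposase could cut and tag DNA. All peaks to which the list gives the name of a member were kept (29). To these were added 6 peaks within 100 kb of the Rag1/Rag2 pair that carry other names, and the peak beside Vpreb1 that is given to Top3b. This gave 36 of the 92842 peaks. The rule that took these peaks used only position and the name of the nearest gene. The members themselves were chosen with earlier results of these data known.

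The list covers 14 libraries of 7 cell types sorted by antibody staining from wild-type C57BL/6 mice of 8 to 12 weeks. Each cell type has 2 libraries. MPP (multipotent progenitors), CMP and CLP (common myeloid and common lymphoid progenitors), GMP (granulocyte-macrophage progenitors), MEP (megakaryocyte-erythroid progenitors) and ProB (B cell progenitors) came from bone marrow, and ProT (T cell progenitors) from thymus. No value per library or cell type was analysed here, so depth is unknown, values have no replicate error, and the sorted identities could not be checked against markers. A peak below was open enough to be listed in the merged set, and the cell type in which it was open is not known.

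Rag1 and Rag2 form the recombinase that cuts DNA beside V, D and J segments in early B and T cells. Dntt encodes terminal deoxynucleotidyl transferase, which adds untemplated nucleotides at the joins. Vpreb1 and Igll1 form the surrogate light chain, which pairs with a new immunoglobulin heavy chain in the pre-B cell receptor, and Vpreb3 is a related protein that binds immunoglobulin chains inside early B cells. Rag genes are used in both lymphoid lineages, whereas the surrogate light chain is a hallmark of B cell progenitors.

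The promoters divided the members 5 to 1. A peak lay over the transcription start site (TSS) of Rag1, Rag2, Dntt, Igll1 and Vpreb3, and none lay over that of Vpreb1. Whether this division depends on sequence was not tested. The sequences are shown because the motif matches of the members lie in them. Each is the 250 bases upstream of the TSS, 5′ to 3′ on the strand of the gene, from RefSeq on GRCm38.p6. The chromosomes of that build are those of mm10, the build of the list. Capitals mark the letters of any of 11 motifs described further below.

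Rag1, minus strand of chr2:101649533-101649782, under a peak: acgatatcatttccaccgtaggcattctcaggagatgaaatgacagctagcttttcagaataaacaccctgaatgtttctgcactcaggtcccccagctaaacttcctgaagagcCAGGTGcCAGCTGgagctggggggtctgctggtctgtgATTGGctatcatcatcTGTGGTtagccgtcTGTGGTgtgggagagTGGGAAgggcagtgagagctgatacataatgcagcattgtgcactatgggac

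Rag2, plus strand of chr2:101624462-101624711, partly under a peak: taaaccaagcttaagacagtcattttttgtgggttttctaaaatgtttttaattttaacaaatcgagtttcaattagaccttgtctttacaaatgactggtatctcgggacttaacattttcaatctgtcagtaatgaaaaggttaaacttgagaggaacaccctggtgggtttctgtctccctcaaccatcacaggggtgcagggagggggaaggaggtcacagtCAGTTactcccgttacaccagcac

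Dntt, plus strand of chr19:41029025-41029274, partly under a peak: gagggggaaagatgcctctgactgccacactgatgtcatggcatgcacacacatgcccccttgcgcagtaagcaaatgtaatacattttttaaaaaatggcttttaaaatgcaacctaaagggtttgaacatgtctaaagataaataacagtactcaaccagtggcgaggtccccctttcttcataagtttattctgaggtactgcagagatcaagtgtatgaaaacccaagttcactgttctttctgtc

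Igll1, minus strand of chr16:16863986-16864235, under a peak: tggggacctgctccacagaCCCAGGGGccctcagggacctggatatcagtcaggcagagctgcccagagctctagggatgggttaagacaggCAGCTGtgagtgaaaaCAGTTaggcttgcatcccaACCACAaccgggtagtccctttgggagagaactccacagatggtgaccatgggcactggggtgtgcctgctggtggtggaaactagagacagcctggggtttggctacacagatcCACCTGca

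Vpreb1, minus strand of chr16:16869256-16869505, under no peak: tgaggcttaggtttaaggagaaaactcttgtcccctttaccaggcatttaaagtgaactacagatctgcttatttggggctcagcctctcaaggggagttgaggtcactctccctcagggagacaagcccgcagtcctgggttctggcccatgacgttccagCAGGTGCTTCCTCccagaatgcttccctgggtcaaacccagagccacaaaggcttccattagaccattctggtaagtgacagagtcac

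Vpreb3, plus strand of chr10:75948050-75948299, under a peak: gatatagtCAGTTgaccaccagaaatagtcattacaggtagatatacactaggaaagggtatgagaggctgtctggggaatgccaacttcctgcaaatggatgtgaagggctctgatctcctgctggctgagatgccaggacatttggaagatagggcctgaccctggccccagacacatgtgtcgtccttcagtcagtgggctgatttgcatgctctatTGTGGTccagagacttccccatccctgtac

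The Rag1 peak (chr2:101649337-101649835) was centred 54 bp upstream of the TSS in the deposited list and covered the whole 300 bp promoter window, from 250 bp before to 50 bp after the start. The Igll1 peak (chr16:16863879-16864377) was centred 143 bp upstream, and the Vpreb3 peak (chr10:75948023-75948521) 40 bp upstream, and both also covered their whole windows. The Rag2 peak (chr2:101624569-101625067) was centred 70 bp downstream of the listed TSS, 106 bp downstream of that in the RefSeq table, and covered 64.3% of the window. The Dntt peak (chr19:41029078-41029576) was centred 52 bp downstream and covered 82.3%. Thus the peaks of Rag1, Igll1 and Vpreb3 leaned upstream of the start and those of Rag2 and Dntt downstream.

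All 5 promoter peaks were centred within 150 bp of the TSS of the RefSeq table. Of all coding genes with a promoter peak, 66.1% had their nearest peak as close, with a median distance of 107 bp. A promoter peak is here a peak centred within 1 kb of a TSS that the table or the list gives. By that measure 5 of the 6 members had a promoter peak, and 62.2% of the 17492 coding genes with a TSS in the table had a promoter peak. The share of members was above that background, with only 6 genes behind it and no test.

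**Figure D1:**
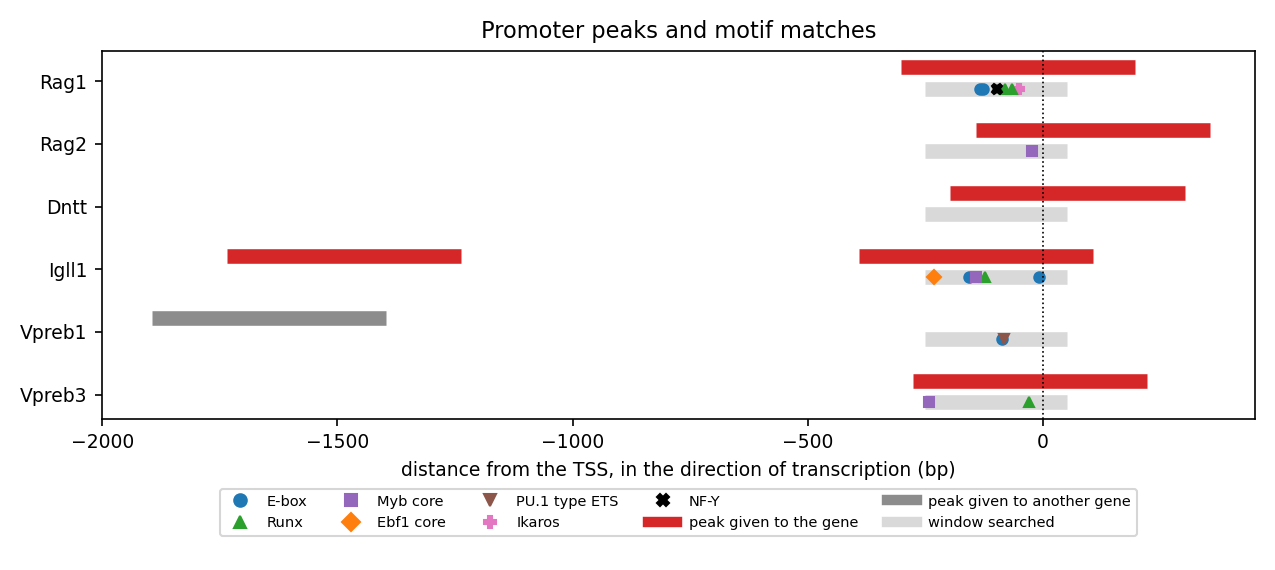
Peaks and motif matches at the 6 promoters. The x axis is the distance from the TSS in bp in the direction of transcription, red bars are peaks given to the gene, the dark grey bar is a peak given to another gene, the light bars are the 300 bp windows searched and symbols are motif matches. Red bars span the TSS in 5 genes, while the nearest bar of Vpreb1 ends 1396 bp upstream.

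The members shared a trait that the rule for taking peaks did not use. Their promoters were poor in CpG, the dinucleotide that marks the CpG island promoters of broadly used genes. Rag1, Rag2 and Vpreb3 had 3 CpG each in the 300 bp window, and Dntt, Igll1 and Vpreb1 had 2 each. The median over all 32851 windows of the table was 7. It counts every window, without a limit to coding genes, whereas the CpG classes below count each coding gene once. GC content was not low throughout. It was 42.3% in Dntt, 43.0% in Rag2, 50% in Rag1, 51.0% in Vpreb3, 54.0% in Vpreb1 and 57.0% in Igll1, on both sides of the median window at 52.7%.

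Promoter peaks were less frequent at CpG-poor promoters. A gene with several TSSs was placed by its window with the most CpG, and a peak at any of its TSSs counted. Each member has 1 TSS in the table, and the number of TSSs per gene was not taken into account. The share of coding genes with a promoter peak was 6.33% at 0 to 1 CpG, 16.9% at 2 to 3, 36.1% at 4 to 7, 72.1% at 8 to 15, 90.4% at 16 to 31 and 91.4% at 32 or more. The class of 2 to 3 CpG, which holds all 6 members, had 2065 genes, of which 348 had a promoter peak. With all genes of at most 3 CpG counted, the share was 11.6% of 4136. The 5 of 6 members therefore stood against a background of 16.9% rather than 62.2% when CpG number was taken into account. That class takes in coding genes of any function, whereas the members were picked as antigen receptor genes of early lymphoid cells. The CpG classes were drawn after the members' values had been seen, and the difference was not tested.

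**Figure D2:**
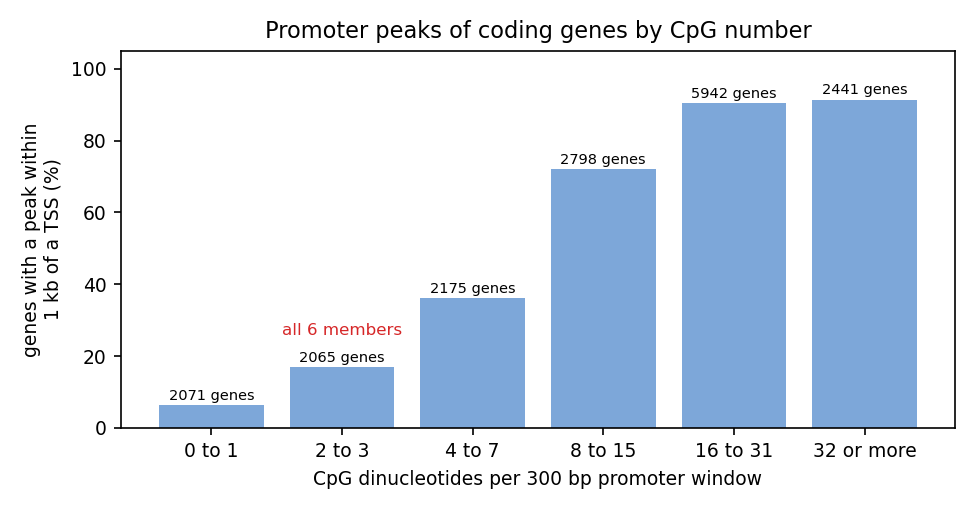
Share of coding genes with a peak within 1 kb of a TSS (y axis, %) by the number of CpG dinucleotides in the 300 bp promoter window (x axis). The number of genes stands above each bar, and a gene with several windows is placed by the one with the most CpG. The share rises from 6.33% to 91.4%, and all 6 members lie in the class of 2 to 3 CpG, where it is 16.9%.

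The 11 motifs were searched by exact letters on both strands of the 300 bp windows. E proteins bind E-boxes, searched as CAGCTG and, in another form, as CAGGTG. The core searched for Ebf1 was CCCNNGGG, and for ETS factors of the PU.1 type it was GAGGAAG. Ikaros was searched as TGGGAA and the Runx family as TGTGGT. The Foxo letters were TGTTTAC and the Myb letters AACTG. Gata factors were searched as AGATAAG, NF-Y as CCAAT and the TATA box as TATAAA. No matches overlapped in the members. A match describes letters and shows no binding, and no match says only that these letters are not in the window.

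Rag1 and Igll1 held the most kinds of match. In Rag1, CAGGTG began 135 bp and CAGCTG 128 bp upstream of the TSS, separated by a single base. TGTGGT followed at 81 and 67 bp upstream, with CCAAT on the other strand at 97 bp and TGGGAA at 52 bp. All 6 of these matches lay under the Rag1 peak.

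In Igll1, CAGCTG began 158 bp upstream and CAGGTG lay on the other strand at 8 bp. It also held CCCNNGGG at 231 bp, AACTG at 142 bp and TGTGGT at 123 bp, the latter both on the other strand. Vpreb3 had TGTGGT at 30 bp and AACTG on the other strand at 242 bp. Rag2 had AACTG alone, on the other strand at 24 bp. In Vpreb1, which had no peak, CAGGTG at 88 bp was followed directly by GAGGAAG on the other strand at 82 bp. Dntt matched none of the 11.

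Over the members, CAGCTG was found in 2 of 6 windows and CAGGTG in 3, against 16.3% and 20.2% of all windows in the table. TGTGGT was found in 3 of 6 (16.8% of all) and AACTG in 3 of 6 (44.8%). CCCNNGGG (13.7%), GAGGAAG (13.6%), TGGGAA (25.6%) and CCAAT (37.4%) were found in 1 member each. TGTTTAC (3.65%), AGATAAG (3.04%) and TATAAA (13.6%) were found in no member. No motif was present in all members. GAGGAAG was found only in Vpreb1, the member without a promoter peak, a single match that was not tested.

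Around the recombinase genes open chromatin was spread over both sides of the pair. Rag2 (plus strand, chr2:101624712-101632528) and Rag1 (minus strand, chr2:101638252-101649532) point towards each other, with 5.72 kb between their ends. The window of 100 kb on either side held 18 peaks. Of these, 9 lay on the Rag2 side, 3 within the pair and 6 on the Rag1 side. The median step between the 18 peaks was 8.41 kb, and that between neighbouring peaks of the whole list was 8.76 kb. This compares steps only and not density, since a median step leaves out long empty stretches.

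The names in the list hide this layout. The list gave 10 of the 18 peaks to Rag2, 2 to Rag1, 2 to B230118H07Rik (Iftap in RefSeq) and 4 to Traf6, a ubiquitin ligase of receptor signalling. Iftap lies on the minus strand, starts 4319 bp inside the Rag2 gene and runs back across the Rag2 promoter. Of the peaks upstream of Rag2, 7 therefore carry an Iftap intron as their annotation.

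The 9 peaks on the Rag2 side, by listed distance to the Rag2 TSS, are given with a minus sign for upstream. They began with 1 at −2.91 kb (chr2:101621589-101622087) and 1 at −8.738 kb (chr2:101615761-101616259). Both lie in intron 1 of 6 of Iftap. The next lay at −16.049 kb (chr2:101608450-101608948), in an RMER1C repeat. A close pair stood at −24.066 kb (chr2:101600433-101600931) and −25.889 kb (chr2:101598610-101599108). These 3 lie in intron 2 of 6.

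Farther out, peaks stood at −43.205 kb (chr2:101581294-101581792, intron 5 of 6) and −61.184 kb (chr2:101563315-101563813, intron 6 of 6). The tightest pair of the locus, with centres 0.858 kb apart, stood at −72.359 and −73.217 kb (chr2:101552140-101552638 and chr2:101551282-101551780), beyond the end of Iftap. Enhancers and an anti-silencer upstream of Rag2 have been described in lymphoid cells. Their coordinates were not used here, so no peak is matched to them.

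Within the pair, apart from the Rag2 promoter, 1 peak (chr2:101628674-101629172) lay at the Iftap promoter inside the Rag2 gene, 4.211 kb downstream of the Rag2 TSS. Another (chr2:101637089-101637587) lay at the Rag1 termination site, in the stretch between the ends of the 2 genes. It was 12.194 kb downstream of the Rag1 TSS and 12.626 kb downstream of the Rag2 TSS. The list names both after Iftap because that TSS is nearest.

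On the Rag1 side, a peak at −3.512 kb from the Rag1 TSS (chr2:101652795-101653293) was the only peak besides the promoter that the list gave to Rag1. The next, at −15.915 kb from Rag1 (chr2:101665198-101665696), was given to Traf6, from whose TSS it lay at −12.973 kb. The 3 others were a Traf6 exon peak near its TSS (chr2:101678298-101678796), one in the last exon of Prr5l (chr2:101715665-101716163) and one in an MTEb repeat in a Prr5l intron (chr2:101732729-101733227). At the edges of the window the outermost peaks inside were 73.2 kb (Rag2) and 83.4 kb (Traf6) beyond the pair. The nearest outside were 103.9 kb (Rag2, kept by its name) and 106.8 kb (Prr5l, not kept).

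**Figure D3:**
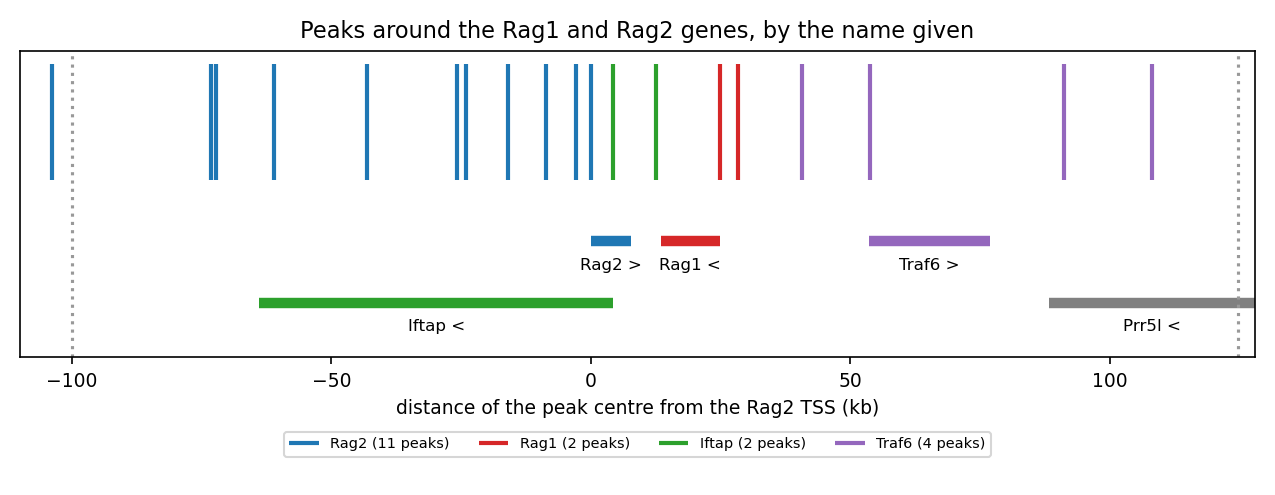
Peaks around Rag1 and Rag2 (vertical lines, coloured by the name given) with the genes as bars and their direction as arrowheads. The x axis is the distance from the Rag2 TSS in kb, dotted lines mark 100 kb beyond the pair, and the Prr5l bar runs on past the right edge. Iftap starts inside Rag2, most lines left of the TSS lie over it, and 1 of the 11 Rag2 lines drawn lies outside the window.

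Rag2 also carried 5 peaks outside the window, all upstream. They stood at −103.96 kb (chr2:101520539-101521037), −151.709 kb (chr2:101472790-101473288), −335.375 kb (chr2:101289124-101289622), −338.328 kb (chr2:101286171-101286669) and −465.389 kb (chr2:101159110-101159608). Beyond the last, the list held no peak for 1922 kb, a stretch in which the RefSeq table places no whole coding gene. Only 65 of the 92821 steps between neighbouring peaks were as long or longer. In all, 14 of the 15 peaks given to Rag2 lay upstream of it.

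Counts by name and by position ranked the 2 genes differently. With 15 peaks by name it stood above 96.1% of coding genes, and Rag1 with 2 above 42.7%. Counted by position, within 100 kb of the TSS, Rag2 had 17 peaks (above 65.7% of coding genes) and Rag1 had 18 (above 69.6%), of which 17 are the same peaks. By position the 2 genes differed by 1 peak.

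Dntt had 6 peaks, set close around its start. Upstream they lay at −12.934 kb (chr19:41016092-41016590), −6.799 kb (chr19:41022227-41022725) and −2.53 kb (chr19:41026496-41026994), the last in a MIR3 repeat. Besides the promoter peak, 2 lay downstream, at 1.974 kb in intron 1 of 10 (chr19:41031000-41031498) and at 10.06 kb in intron 3 of 10 (chr19:41039086-41039584). A further peak in intron 9 of 10, at 24.23 kb, was given to the neighbour Opalin and is not counted as a Dntt peak.

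Within 100 kb Dntt had 20 peaks, above 75.8% of coding genes and the highest count of the 6 members. Of these the list gave 9 to Blnk, 6 to Dntt and 5 to Opalin. Blnk encodes an adaptor of pre-B cell receptor signalling and is the next gene upstream, so the surroundings of Dntt hold another gene of early B cells.

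The surrogate light chain genes Igll1 (minus strand, chr16:16860671-16863985) and Vpreb1 (minus strand, chr16:16868401-16869255) lie side by side. Igll1 had 3 peaks. Besides the promoter peak, 1 lay at −1.486 kb (chr16:16865222-16865720), between the 2 genes, and 1 lay 9.003 kb downstream of the TSS (chr16:16854733-16855231), beyond the end of the gene.

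Vpreb1 had no peak by name, and 74.9% of coding genes had at least 1. The nearest peak (chr16:16870651-16871149) sits at the promoter of Top3b, a topoisomerase gene that starts on the opposite strand. Its centre lay 1645 bp upstream of the Vpreb1 TSS. The next nearest, 3.784 kb downstream of the Vpreb1 TSS, is the upstream peak of Igll1. Among the 6608 coding genes without a promoter peak, the nearest peak was as near as this in 5.67%, and the median distance was 24564 bp. Vpreb1 thus had no promoter peak, but it lay nearer to a peak than most genes of that kind. Within 2 kb it would count as having one.

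Vpreb1 has a near copy, Vpreb2, which starts 1111 kb away on the same chromosome. Over 156 aligned bases of the 2 promoter windows, 153 were identical (98.1%). The longest identical run was 91 bases, from 94 to 4 bp upstream of the Vpreb1 TSS, and it is shown because reads wholly inside it could come from either gene.

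Vpreb1 and Vpreb2, shared run: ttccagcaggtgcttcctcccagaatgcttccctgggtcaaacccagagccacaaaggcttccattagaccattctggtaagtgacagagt

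Neither copy had a promoter peak. The peak nearest to the Vpreb2 TSS lay 6195 bp downstream, and the list gave Vpreb2 3 peaks. None of the other 5 members shared a run of 50 bases with the promoter of another gene elsewhere in the table. Of all coding genes 10.1% did, and 11.6% of those 1772 genes had a promoter peak. With such genes left out, the share in the class of 2 to 3 CpG was 21.1% of 1492. How the authors treated reads that match several places is not stated in the sources used here, and its part in the missing Vpreb1 peak was not tested.

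Vpreb3 (plus strand, chr10:75943024-75949657), on another chromosome, had 3 peaks centred within 3 kb of its TSS. That TSS, the only one in the promoter table, is at 75948300, inside the RefSeq gene span. After the promoter peak came 1 at 1.611 kb downstream, at the termination site (chr10:75949674-75950172), and 1 at 2.705 kb (chr10:75950768-75951266), past the gene. No other member had all its named peaks so close to the TSS used. In a window of 100 kb on either side Vpreb3 had 15 peaks, above 58.3% of coding genes, and they carried the names of 8 genes.

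**Figure D4:**
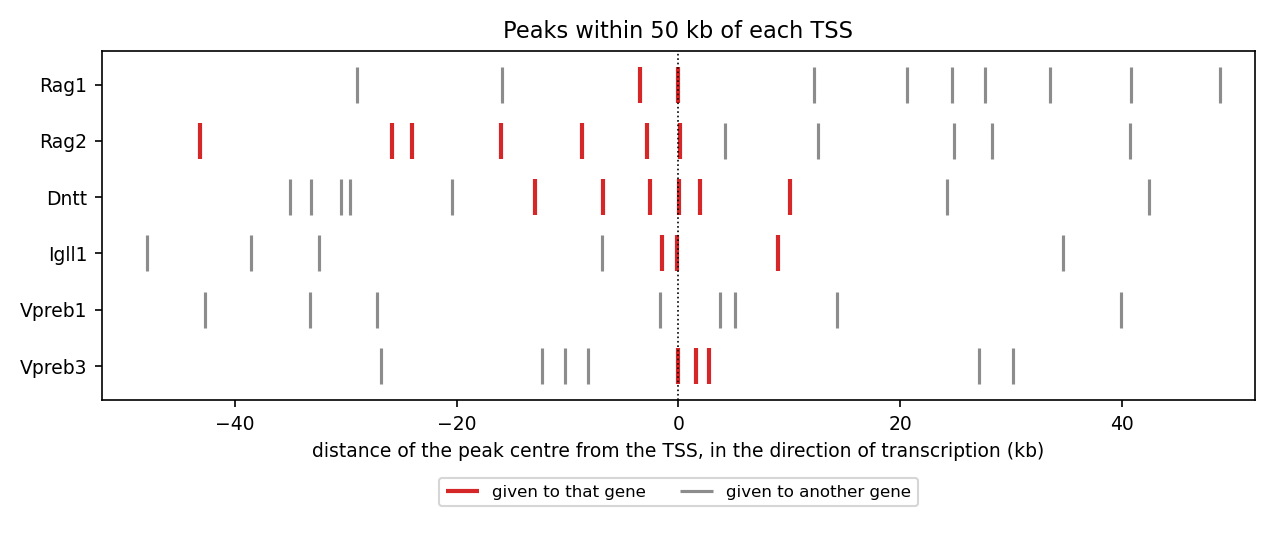
Peaks within 50 kb of each TSS (vertical lines), with the distance from the TSS in the direction of transcription on the x axis in kb. Red lines are peaks given to that gene and grey lines peaks given to another. Rag2 has its red lines at and upstream of the start and Vpreb3 at and downstream, while Vpreb1 has grey lines only.

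Set against each other, the members had 9 to 20 peaks within 100 kb: 9 for Igll1 and Vpreb1, which share all 9, 15 for Vpreb3, 17 for Rag2, 18 for Rag1 and 20 for Dntt. The median was 16, and that of all coding genes 12 (quartiles 5 and 19). Igll1 and Vpreb1 stood above 35.0% of coding genes. The highest, Dntt, stood above 75.8%.

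Close to the start 5 of the 6 members ranked higher than at 100 kb, and Rag1 lower. Within 10 kb Rag2, Dntt, Igll1 and Vpreb3 had 4 peaks each, above 84.5% of coding genes. Vpreb1 had 3, above 70.5%, and Rag1 had 2, above 49.0%. The median was 4 in the members, 2 in all coding genes and 0 in coding genes with 2 to 3 CpG. Within 100 kb that last median was 5. The windows of Rag1 and Rag2 and those of Igll1 and Vpreb1 overlap, so the 6 counts are not independent, and no test was made.

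**Figure D5:**
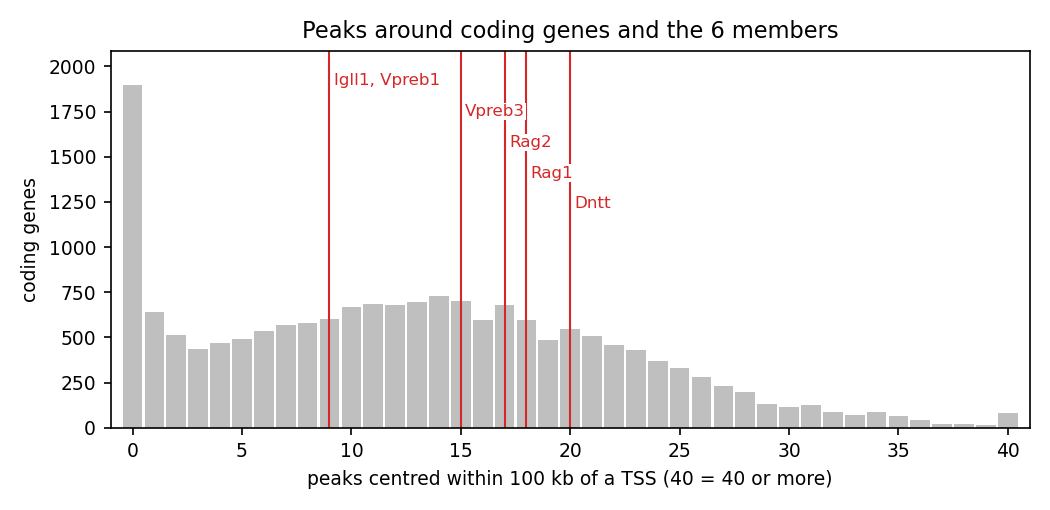
Number of coding genes (y axis) by the number of peaks centred within 100 kb of a TSS (x axis), with the 6 members as red lines. The members lie between 9 and 20 peaks, on both sides of the median of 12.

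By annotation, 7 of the 36 peaks (19.4%) were promoter-TSS peaks, the Iftap and Top3b promoters among them, against 11.6% of all peaks. Intergenic peaks made up 41.7% (39.3% of all) and intron peaks 27.8% (42.0% of all). Only 3 of the 36 (8.33%) lay in an annotated repeat, against 16% of all, and 24 (66.7%) lay upstream of their listed TSS, against 42.3%. The 14 upstream peaks of Rag2 weigh on that last share. The rule took peaks by position and by the nearest gene, on which class and direction also rest. These shares therefore describe the chosen peaks only and were not tested.

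Most other genes of the same pathways also had promoter peaks, as did 62.2% of all coding genes. Of 17 genes of recombination and end joining, 16 had a promoter peak. Poll, a gap-filling polymerase, had 11 peaks by name, Hmgb1, a DNA-bending cofactor of the recombinase, had 10, and Xrcc4, a partner of the end-joining ligase, had 9. Paxx, an end-joining factor, had none by name, but a peak given to another gene lay at its promoter. Prkdc, the DNA-dependent protein kinase, had 3 peaks by name, none of them within 1 kb of the listed TSS. Its TSS is not in the promoter table, so it was placed by the list alone. A peak at its promoter given to another gene would therefore have been missed.

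Of 10 genes of the pre-B cell receptor and its signalling, 9 had a promoter peak, all but Vpreb2. Plcg2, a phospholipase, had 17 peaks by name, the kinase gene Syk 16 and Blnk 9. All 18 listed regulators had a promoter peak, with Foxp1 at 88 peaks, Bcl11a at 40 and Runx1 at 39. Median peaks within 100 kb were 17 for the recombination list, 21 for the receptor list and 24 for the regulators. These cover the 13, 7 and 15 genes with a TSS in the table. The median was 16 for the members and 12 for all coding genes.

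The lists differed from the members in CpG. Each gene was again placed by its window with the most CpG. The median promoter had 20 CpG in the recombination list, 8 in the receptor list and 25 among the regulators, and 2.5 in the members. Genes with at most 3 CpG numbered 0 of 13, 2 of 7 and 0 of 15 in the 3 lists and 6 of 6 in the members. Over all coding genes with a TSS in the table they numbered 4136 of 17492. The 2 were Vpreb2, without a promoter peak, and the kinase gene Btk, with one. The median promoters of the recombination and regulator lists thus fell in the class where 90.4% of coding genes had a promoter peak. That of the receptor list fell in the class of 8 to 15 CpG, where 72.1% had one. The members fell in the class where 16.9% had one. These are descriptions of short lists chosen by hand, and they were not tested.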

How the data were processed

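ATAC-seq libraries of 7 sorted mouse cell types (14 libraries) are represented by a merged list of 92842 peaks, each 499 bp wide. The authors ran annotatePeaks on it with mm10, per the file headers. HOMER 4.10.2 is named in the submitters' processing notes. No source used here states the aligner, peak caller, threshold or merging. Every deposited peak score is 0, and scores were not used. Each peak is named after the closest TSS in the list, whichever gene it may act on, and a fixed width says nothing of the extent of open DNA.

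TSSs came from a RefSeq table of promoter windows (GRCm38.p6), which held all 6 members and 17492 of 21900 coding genes. Distances run from the peak centre. Percentiles give the share of these genes with fewer peaks. Named genes were the members, every gene naming a peak of the Rag window or the peak beside Vpreb1, Vpreb2, and in each of 3 pathway lists the 3 genes with the most peaks and those without one. Blnk and Opalin as neighbours of Dntt, Prr5l as neighbour of the Rag window, Prkdc, Btk, Ebf1 and Lef1 were added after their values were seen. Members and lists were chosen with earlier results of these data known. Counting and motif search were tested on simulated data (Python 3.11.15, pandas 2.3.3). No significance test was made, since the list holds no value per library.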

Additional observations from a re-analysis of the deposited data

How the results depend on the processing

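The peak count of the Rag1/Rag2 region (18) was 13 with a window of 50 kb, 29 with 200 kb and 17 by name alone. The number of members with a promoter peak (5) was 5 within 500 bp, 6 within 2 kb, where Vpreb1 counts through the Top3b peak, and 5 with listed names and distances alone. For coding genes the shares were 59.2%, 65.3% and 55.7%. The percentiles by peak count within 100 kb moved with the window in all 6 members. Within 50 kb they were 76.0 (Rag1), 80.8 (Rag2), 85.0 (Dntt), 58.2 (Igll1), 58.2 (Vpreb1) and 65.1 (Vpreb3). Within 10 kb they were 49.0, 84.5, 84.5, 84.5, 70.5 and 84.5 in the same order, and by name 42.7, 96.1, 79.4, 56.3, 0.0 and 56.3. The pathway counts with a promoter peak stayed at 16 and 9 for the recombination and receptor lists within 500 bp and 2 kb. For the regulators the count was 16 within 500 bp, without Ebf1 and Lef1, and 18 within 2 kb. Motifs in the central part of the peaks were not run, since peak sequences were not used here, and no library could be left out.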
